A study of Mus musculus with 8 samples.

Results

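The transporters that carry amino acids were examined in mouse kidney cortex across 7 solute carrier families: Slc1, Slc3, Slc6, Slc7, Slc36, Slc38 and Slc43. Members were all gene symbols in the deposited table that begin with one of these family names followed by a member number, with no threshold on expression. The pattern matched 62 of the 21705 gene names, of which 19 belong to Slc6, 16 to Slc7, 11 to Slc38, 7 to Slc1, 4 to Slc36, 3 to Slc43 and 2 to Slc3. One of the Slc7 symbols, Slc7a6os, is a gene on the strand opposite Slc7a6 and encodes no transporter. It was kept because it matched the pattern.

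The proximal tubule takes back nearly all filtered amino acids. Carriers in the brush border draw them from the filtrate with sodium, protons or by exchange, and carriers in the basolateral membrane hand them on to the blood. Several work only as pairs: the heavy chains encoded by Slc3a1 and Slc3a2 bring Slc7 light chains to the membrane, and collectrin (Tmem27) does so for carriers of the Slc6 family. Another set of carriers, among them those of Slc1a5, Slc7a5 and Slc38a2, feeds growing cells with glutamine, leucine and other amino acids in many tissues.

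Poly(A) RNA had been sequenced from kidney cortex of mice of mixed background. The Sav1-null group consisted of 4 libraries with the genotype Sav1-/- and tamoxifen treatment (abbreviated KS in the labels), and the wild-type group of 4 libraries with the genotype Sav1+/+ and vehicle treatment (Ctrl). Sav1 encodes salvador, a scaffold of the Hippo kinase pathway. Sex, age, the Cre driver and whether each library came from its own animal are not given in the labels, so p-values measure the spread between libraries, which may be partly technical. Values are deposited normalized levels, scaled so that the upper quartile of the values above 0 was close to 1000 in each library. They are not divided by gene length.

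Sav1 had 983, 914, 982 and 714 in the Sav1-null libraries, against 1504, 1743, 959 and 1193 in the wild-type libraries. The log2 fold change (Sav1-null over wild-type) was -0.56 ± 0.19 (SE), with a limma adjusted p of 0.0220. An exact permutation test (two-sided) over all assignments returned p = 0.0857, and no p under 0.0286 is possible with 4 against 4. The limma call was lost without wild-type replicate 1 (-0.50, adjusted p = 0.0611), without wild-type replicate 2 (-0.43, adjusted p = 0.0570) and with equal library totals. Stat3 averaged 5379 ± 226 in Sav1-null libraries and 1950.2 ± 193 in wild-type libraries (SD, n = 4 each). Xist averaged 12229 ± 2922 in Sav1-null and 0.247 ± 0.494 in wild-type libraries, while Eif2s3y, Ddx3y, Uty and Kdm5d of the Y chromosome were at 0 in every Sav1-null library and averaged between 378 and 1205 in the wild-type libraries. Genotype, treatment and sex-chromosome transcripts therefore cannot be told apart in any comparison below. Library names end in the same set of sample numbers in both groups, and whether the groups were sequenced together is not stated in them. The 10 proximal tubule markers summed to 38468 to 108236 in Sav1-null libraries and to 326065 to 385944 in wild-type libraries, and all 10 were lower, with Sav1-null replicate 4 the lowest. The 8 markers of injured tubule summed to 52686 to 95190 in Sav1-null libraries and to 5304 to 7451 in wild-type libraries. Sav1-null replicate 4 had the highest sum. Lcn2, Sox9, Krt8, Krt18, Cd24a and Prom1 were highest in that library, while Havcr1 (6275) and Vcam1 (5548) were lowest there among the Sav1-null libraries. Wild-type libraries were not alike either. In replicates 2 and 3 Havcr1 had 1099 and 665, Lcn2 156 and 211, and Vcam1 1059 and 556. In replicates 1 and 4 Havcr1 had 23.6 and 15.5, Lcn2 16.3 and 7.22, and Vcam1 235 and 110. Sox9 and Cd24a were split in the same way, while Krt8, Krt18 and Prom1 were not. In whole cortex, fewer cells of a type and less RNA per cell cannot be told apart.

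Amino acid transporter genes moved in both directions. Of the 62 members, 42 had a mean of at least 10 and were tested, and 20 fell below that limit. In Sav1-null cortex 14 members rose, 14 fell and 14 were not called at an adjusted p under 0.05 (limma, adjusted over all 13677 tested genes). The split stayed near even after median-of-ratios rescaling (12 rose, 15 fell) and quantile normalization (14 rose, 12 fell). With equal library totals 23 rose and 10 fell. As deposited, members were called in 66.7% of cases, against 69.1% of all tested genes, of which 43.9% were higher and 25.2% were lower. At least 2-fold changes were called for 12 members upward (23.1% of all tested genes) and 9 downward (9.51% of all tested genes). The groups did not overlap for 24 members, beside 65.2% of all tested genes. The median log2 fold change was 0.06 over the 42 tested members and 0.23 over all tested genes. The counts given below for families and lists are to be read beside these shares. Slc7a12, Slc7a13, Slc38a4 and Slc43a1 passed the filter with a mean under 10 in one of the groups.

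**Figure D1:**
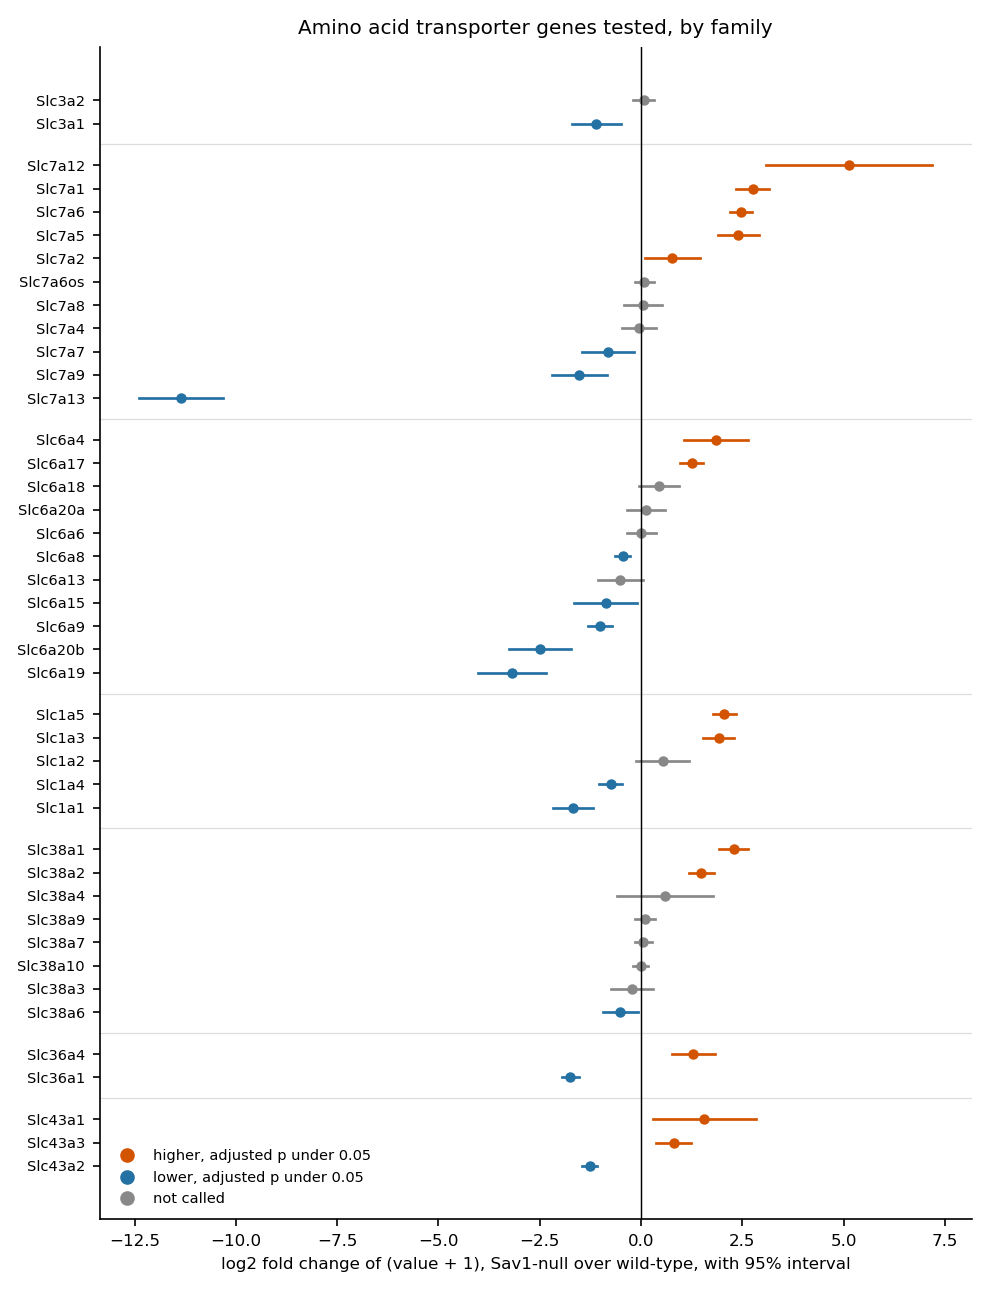
Log2 fold change of value + 1 (Sav1-null over wild-type) of the 42 tested members, grouped by family, with 95% intervals; orange marks members called higher, blue members called lower and grey members not called. Slc7a13 stands at -11.35 and Slc7a12 at 5.14, and every other member lies between -3.19 and 2.76.

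The summed level of all 62 members was lower in the Sav1-null libraries. It came to 77883, 63785, 82955 and 53132 in these, against 114098, 113759, 116456 and 106411 in the wild-type libraries, and the ranges did not overlap. As a share of the library total the members held 0.343% to 0.5034% in Sav1-null libraries and 0.5027% to 0.558% in wild-type libraries. On this measure the ranges overlapped slightly. Slc7 held 9.55% to 11.1% of the members' sum in Sav1-null libraries and 23.5% to 25.5% in wild-type libraries. Slc7a13 alone held 16.0% to 18.4% of the sum in wild-type libraries. Slc38 held 13.6% to 19.5% in Sav1-null libraries and 6.89% to 9.01% in wild-type libraries, and Slc6 held 39.3% to 48.8% in Sav1-null libraries and 33.9% to 35.2% in wild-type libraries.

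**Figure D2:**
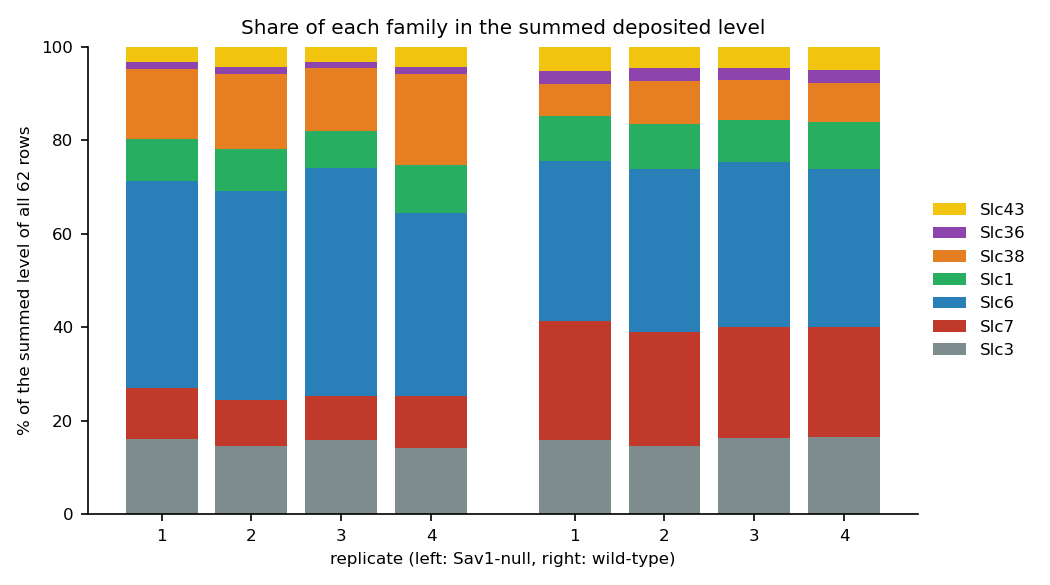
Share (%) of each of the 7 families in the summed deposited level of the 62 members, 1 bar per library, with the 4 Sav1-null libraries on the left and the 4 wild-type libraries on the right. The Slc7 segment covers 9.55% to 11.1% of the Sav1-null bars and 23.5% to 25.5% of the wild-type bars.

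Levels of different genes were compared per kilobase of the longest annotated transcript. In Sav1-null cortex the order began with Slc6a18 at 3475 ± 1151 per kilobase and Slc3a1 at 3216 ± 1254 (SD, n = 4), which did not differ beyond their spread. Slc3a2 (1179 ± 131), Slc6a6 (1172 ± 269), Slc6a8 (1051 ± 90.1) and Slc38a3 (1018 ± 224) followed, again within their spread of each other. In wild-type cortex Slc7a13 stood first at 8868 ± 780.1 per kilobase, ahead of Slc3a1 at 6445 ± 339.5. Slc6a18 (2449.8 ± 189.8) and Slc1a1 (2319 ± 94.3) came next and lay within their spread of each other, and Slc7a9 (1511 ± 168) and Slc6a8 (1433 ± 60.2) followed, again within their spread. Slc7a13 thus ranked first of the members in wild-type cortex and 42nd in Sav1-null cortex. The order depends on the length used: per kilobase of coding sequence Slc6a6 (3891) stood above Slc3a1 (3554) in Sav1-null cortex, and in wild-type cortex Slc1a1 (5616) above Slc6a18 (5509) while Slc7a9 ranked 11th.

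**Figure D3:**
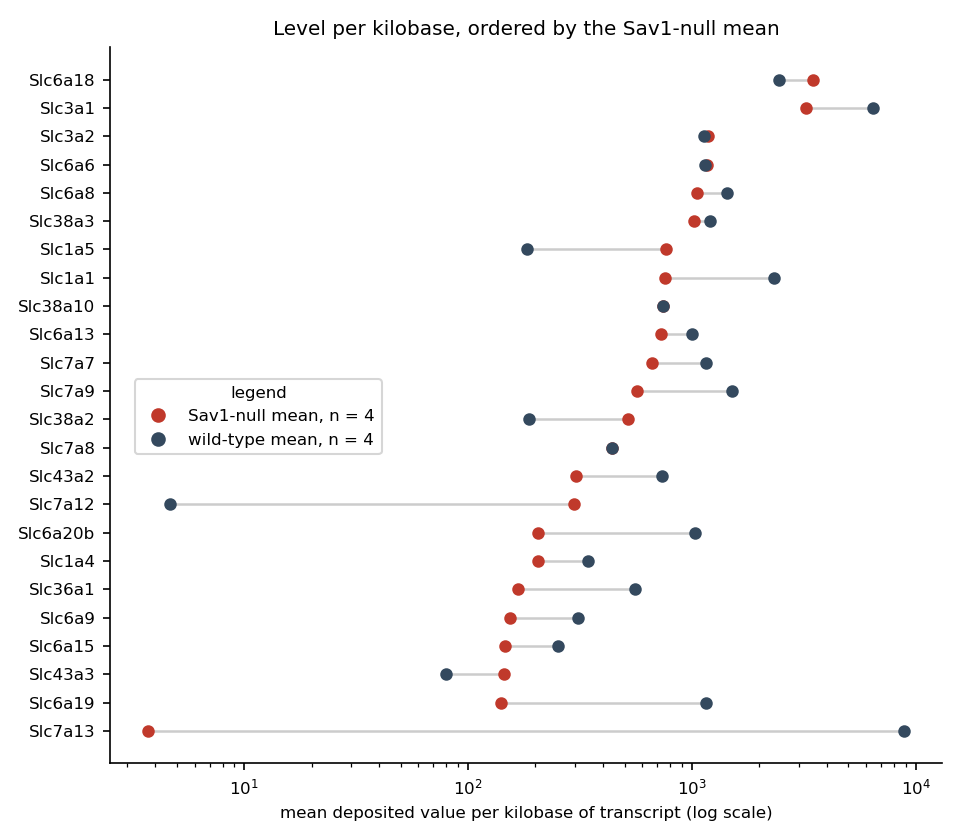
Mean deposited value per kilobase of transcript (log axis) for the 24 members that ranked high in either group, in the order of the Sav1-null means; red points are Sav1-null means and dark points wild-type means (n = 4 each), joined by a grey line. Slc6a18 leads in Sav1-null cortex at 3475, and Slc7a13 leads in wild-type cortex at 8868.

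The heavy chains behaved differently from each other. Slc3a1 encodes rBAT, which carries the cystine and dibasic amino acid exchanger to the brush border of the proximal tubule, and it had 9095, 6356, 10036 and 3731 in Sav1-null libraries, against 14399, 13933, 15735 and 14476 in wild-type libraries. Every Sav1-null library lay below every wild-type library. Slc3a1 fell by 1.10 ± 0.27 (SE) on the log2 scale (limma adjusted p = 0.00517), a call that was lost after quantile normalization (-0.44, adjusted p = 0.198). Slc3a2 encodes the heavy chain of the basolateral exchangers and of the carriers of dividing cells. It had 3448, 2994, 3046 and 3777 in Sav1-null libraries, against 3736, 2669.7, 3151 and 3129.9 in wild-type libraries, and the groups overlapped (log2 fold change 0.068 ± 0.12, 95% interval from -0.20 to 0.33, limma adjusted p = 0.621). It was not called as deposited, but was called higher after quantile normalization (0.34, adjusted p = 0.0425) and with equal library totals (0.45, adjusted p = 0.00765). The ratio of Slc3a1 to Slc3a2 was 0.988 to 3.29 in Sav1-null libraries and 3.85 to 5.22 in wild-type libraries.

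Light chains that pair with rBAT fell. Slc7a9 encodes the exchanger of cystine, arginine and lysine that is mutated, like SLC3A1, in human cystinuria. Its values were 1377, 1171, 1651 and 529.5 in Sav1-null libraries, against 3543, 2791, 3345 and 2929 in wild-type libraries. All Sav1-null libraries were lower (-1.52 ± 0.30, limma adjusted p = 0.00155). The ratio of Slc3a1 to Slc7a9 was 5.43 to 7.05 in Sav1-null libraries and 4.06 to 4.99 in wild-type libraries, so that the light chain was further below its wild-type level than the heavy chain was.

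Slc7a13 showed the largest change of any member. It encodes the aspartate, glutamate and cystine carrier that pairs with rBAT in the last segment of the proximal tubule, and in mouse kidney it is known to be higher in males. Slc7a13 had 14.8, 1.96, 11.1 and 3.94 in Sav1-null libraries, against 18424, 20988, 19493 and 17039 in wild-type libraries. The Sav1-null mean was 0.0419% of the wild-type mean and rested on an estimated 39 reads in 4 libraries, beside an estimated 82269 reads in the wild-type libraries. Its log2 fold change was -11.35 ± 0.46 (limma adjusted p = 3.51e-07), or -10.11 with a pseudocount of 10. Kap, the androgen-regulated kidney protein of the mouse proximal tubule, averaged 10068 ± 11315 in Sav1-null libraries and 856120.0 ± 74464 in wild-type libraries. The 5 markers of the last proximal segment summed to 2416 to 6064 in Sav1-null libraries and to 4951 to 7696 in wild-type libraries, ranges that overlap. Of these markers 3 fell, among them Slc22a7 (-5.01) and Cyp7b1 (-1.38), and 1 rose, Slc5a1, which made up most of the Sav1-null sum at 3208 ± 896. The part of sex, of genotype and of that segment's cell number in the difference cannot be told apart.

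Slc7a12 went the other way. It encodes a neutral amino acid carrier of the same subfamily, which in mouse kidney is known to be higher in females. Its values were 971, 192, 869.8 and 43.3 in Sav1-null libraries, against 9.98, 12.6, 6.70 and 3.09 in wild-type libraries. The Sav1-null libraries spanned a wide range, with replicates 1 and 3 high and replicate 4 low, and all lay above the wild-type libraries. The log2 fold change was 5.14 ± 0.91, or 35.2-fold (limma adjusted p = 0.000776), and without Sav1-null replicate 4 it was 6.04, or 66.0-fold.

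**Figure D4:**
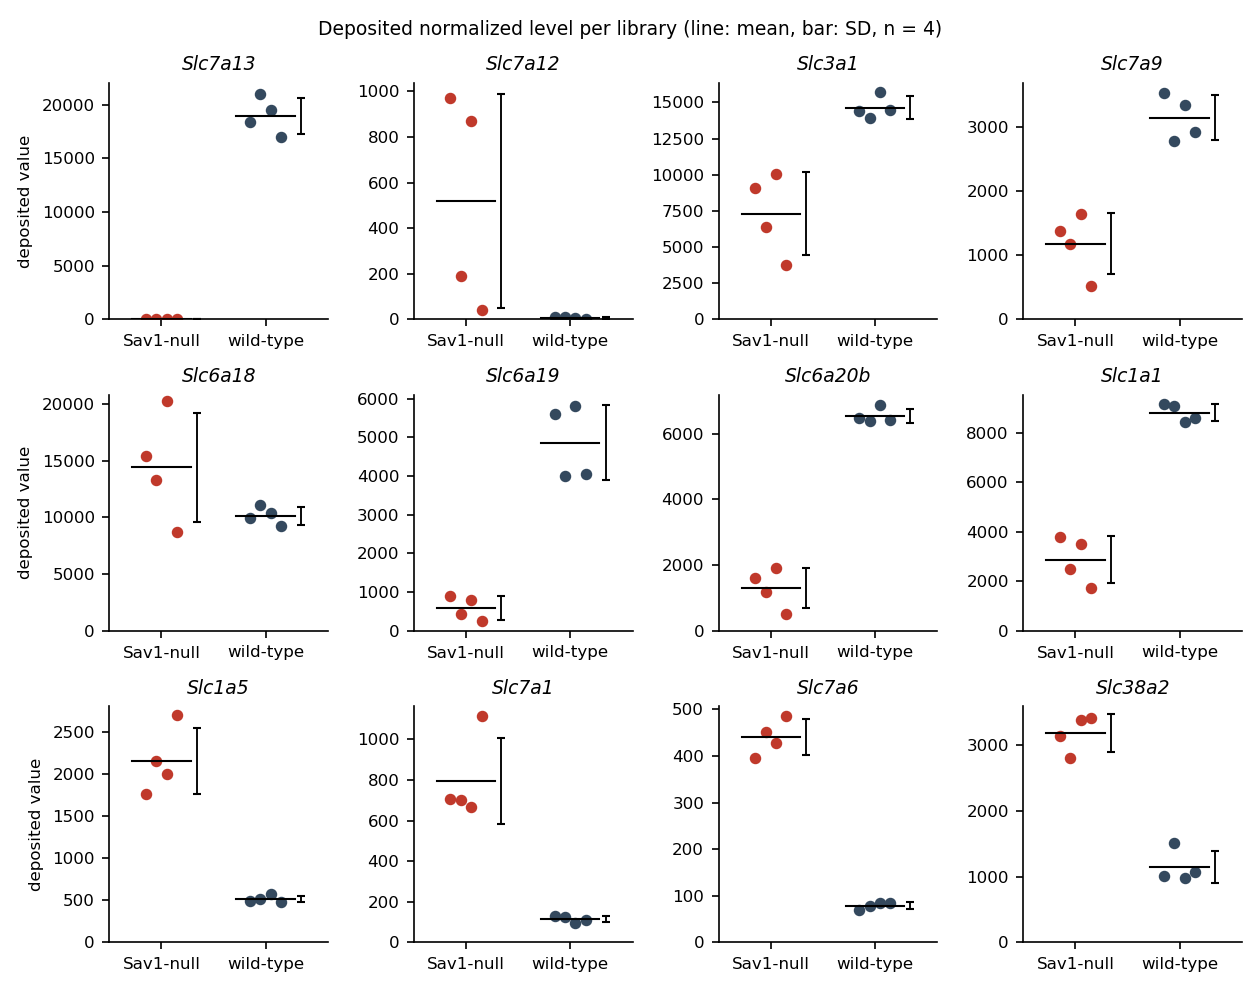
Deposited normalized level of 12 members in each library, Sav1-null on the left and wild-type on the right of each panel, with the mean as a line and the SD as a bar (n = 4 each); the vertical axes start at 0 and differ between panels. Slc7a13 is near 0 in the Sav1-null libraries and between 17039 and 20988 in the wild-type libraries, while Slc1a5, Slc7a1, Slc7a6 and Slc38a2 lie higher in every Sav1-null library.

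Among the tested light chains that pair with the product of Slc3a2, Slc7a5 and Slc7a6 rose, and Slc7a7 and Slc7a8 did not. Slc7a5 encodes LAT1, the leucine and phenylalanine exchanger of growing cells, and it had 172, 247, 139.8 and 235 in Sav1-null libraries, against 27.2, 41.9, 37.3 and 38.1 in wild-type libraries. Slc7a6 encodes a related exchanger of dibasic and neutral amino acids, with 395, 452, 427 and 486 in Sav1-null libraries, against 69.8, 77.1, 85.2 and 83.5 in wild-type libraries. Every Sav1-null library stood above the wild-type libraries for both genes. Slc7a5 rose by 2.40 ± 0.22 on the log2 scale (limma adjusted p = 1.52e-05) and Slc7a6 by 2.46 ± 0.12 (limma adjusted p = 6.87e-07). Slc7a6os, on the opposite strand, averaged 391 ± 32.1 in Sav1-null and 369.9 ± 37.4 in wild-type libraries and was not called (0.082 ± 0.10, adjusted p = 0.506), except with equal library totals (0.46, adjusted p = 0.00379). Whether the authors' counting used strand is not given in the sources used here. For each gene of this overlapping pair, all 5 values below 400 were whole numbers of estimated reads to within 0.02 read. Whether reads were divided between the pair was not tested.

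Slc7a7 encodes the basolateral exchanger that releases arginine and lysine to the blood and is mutated in human lysinuric protein intolerance. It had 2279.9, 1165, 1604 and 997 in Sav1-null libraries, against 3575, 1701, 2884 and 2342 in wild-type libraries, and wild-type replicate 2 lay inside the Sav1-null range. The fold change was -0.82 ± 0.29 (limma adjusted p = 0.0287). This call was lost without Sav1-null replicate 2 (adjusted p = 0.0781), Sav1-null replicate 4 (adjusted p = 0.0573), wild-type replicate 1 (adjusted p = 0.0798) or wild-type replicate 3 (adjusted p = 0.0709). It was also lost after quantile normalization (-0.71, adjusted p = 0.0566) and with equal library totals (-0.43, adjusted p = 0.177). Slc7a8, the basolateral carrier of neutral amino acids, had 2013, 1521, 1935 and 1726 in Sav1-null libraries, against 2587, 1376, 1313 and 1888 in wild-type libraries. Its groups overlapped and it was not called (0.053 ± 0.21, 95% interval from -0.41 to 0.52, limma adjusted p = 0.828).

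Of the cationic amino acid carriers that need no heavy chain, Slc7a1 and Slc7a2 rose. Slc7a1, which supplies arginine and lysine to most cells outside the liver, had 707, 699.9, 665 and 1114 in Sav1-null libraries, against 128, 126, 97.6 and 108 in wild-type libraries. The Sav1-null values were all above the wild-type values, with replicate 4 standing apart at the top, and the log2 fold change was 2.76 ± 0.18 (limma adjusted p = 2.30e-06). Slc7a2, a lower affinity relative, ranged from 35.4 to 80.2 in Sav1-null libraries and from 25.1 to 45.4 in wild-type libraries. It rose by 0.77 ± 0.30 (limma adjusted p = 0.0431), and the call was lost when any single library other than Sav1-null replicate 4 or wild-type replicate 4 was left out (adjusted p from 0.0650 to 0.115) and turned to -0.22 after quantile normalization. It was lost after median-of-ratios rescaling as well (0.55, adjusted p = 0.130). Slc7a4 averaged 181 ± 43.2 in Sav1-null and 184 ± 28.1 in wild-type libraries and was not called (-0.041 ± 0.19, adjusted p = 0.854), but was called lower after quantile normalization (-0.64, adjusted p = 0.0232).

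Slc7a3 and Slc7a11 lay below the filter. Slc7a3, another arginine carrier, had 5.47, 15.6, 14.2 and 15.7 in Sav1-null libraries, against 2.72, 2.51, 0.957 and 1.03 in wild-type libraries, about 57 and 8 reads in all. Slc7a11 encodes the cystine and glutamate exchanger that feeds glutathione synthesis, with 7.81, 13.7, 8.69 and 32.5 in Sav1-null libraries, against 0, 3.35, 1.91 and 0 in wild-type libraries, about 68 and 6 reads in all. Neither pair of groups overlapped. With no filter on low values limma gave log2 fold changes of 2.26 ± 0.40 (adjusted p = 0.000833) for Slc7a3 and 2.92 ± 0.60 (adjusted p = 0.00196) for Slc7a11. The remaining Slc7 members, Slc7a10, Slc7a14 and Slc7a15, averaged below 7 in both groups.

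Slc7a11 is a textbook target of ATF4, the transcription factor that cells raise when amino acids run short, which binds elements with the core TGATGNAA. The mouse promoter tables of RefSeq (GRCm38.p6) held windows from 250 bases before to 50 bases after the start for 44 of the 62 members. The core was searched on both strands and lay in 3.97% of all 32851 windows and in 4 of the 65 windows of members (6.15%), which belong to 3 genes, Slc7a11, Slc7a7 and Slc1a4. The stretches before the start that hold it are shown for the pair of genes whose core lies there, with the core in capitals, and both read 5′ to 3′ on the minus strand:
Slc7a11, chr3:50443623-50443709: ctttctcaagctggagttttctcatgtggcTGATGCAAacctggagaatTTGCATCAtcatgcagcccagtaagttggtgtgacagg
Slc7a7, chr14:54418048-54418115: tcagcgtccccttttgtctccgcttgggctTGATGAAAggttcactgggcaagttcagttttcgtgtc
In the Slc7a11 window the core occurs on the same strand, 66 to 59 bases before the start, and again on the opposite strand, 47 to 40 bases before the start. In the Slc7a7 window it lies 141 to 134 bases before the start, as TGATGAAA. A separate core, TGATGCAA, lies 243 to 236 bases before another annotated start of Slc7a7, outside the stretch shown. Slc7a11, which lay below the filter with few reads, was higher in Sav1-null cortex. Slc7a7 was lower, by a call that was lost in several alternatives. Slc1a4, whose core lies after the start, was lower too. A match of letters is a description of the window and not of binding.

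The Slc6 family holds sodium-driven carriers of neutral amino acids in the brush border and carriers of taurine, creatine, glycine and transmitters. Of 11 tested members, 2 rose and 5 fell, or 63.6% called, beside 69.1% of all tested genes. Slc6a19 encodes B0AT1, the main brush-border carrier of neutral amino acids and the gene of human Hartnup disorder. It had 892, 427, 800.3 and 244 in Sav1-null libraries, against 5591, 3997, 5797 and 4054 in wild-type libraries. All Sav1-null libraries were far below the wild-type libraries, and Slc6a19 fell by 3.19 ± 0.37 on the log2 scale, or 9.15-fold (limma adjusted p = 5.78e-05). Slc6a18 encodes a related brush-border carrier of later proximal segments, which leads the members of this family in level. It had 15375, 13284, 20256 and 8750.0 in Sav1-null libraries, against 9948, 11081, 10417 and 9210.3 in wild-type libraries. Replicates 1, 2 and 3 of the Sav1-null group were above every wild-type library and replicate 4 was below all of them, and the difference was not called (0.44 ± 0.22, 95% interval from -0.05 to 0.94, limma adjusted p = 0.100). Without Sav1-null replicate 4 Slc6a18 was called higher (0.66, adjusted p = 0.00179), as it was after quantile normalization (1.19, adjusted p = 0.00109) and with equal library totals (0.83, adjusted p = 0.00449). The ratio of Slc6a18 to Slc6a19 was 17.2 to 35.8 in Sav1-null libraries and 1.78 to 2.77 in wild-type libraries.

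**Figure D5:**
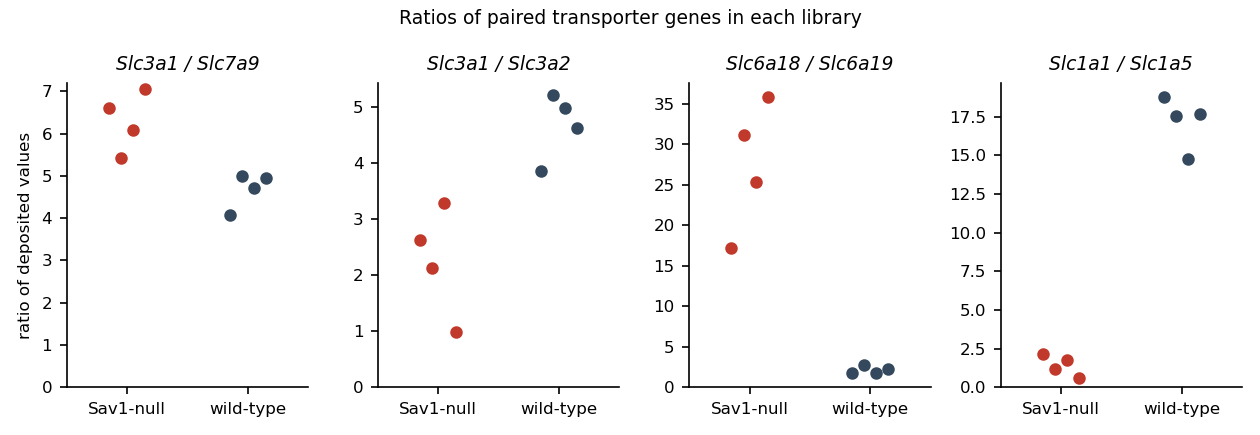
Ratio of the deposited values of 4 pairs of transporter genes in each library (1 point per library, Sav1-null on the left, wild-type on the right; vertical axes start at 0). The ratio of Slc6a18 to Slc6a19 is 17.2 to 35.8 in Sav1-null libraries and 1.78 to 2.77 in wild-type libraries, and the ratio of Slc1a1 to Slc1a5 is 0.639 to 2.14 in Sav1-null libraries and 14.8 to 18.8 in wild-type libraries.

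The imino acid carrier takes up proline and glycine betaine, and the mouse has a pair of similar Slc6a20 genes. Whether the product of each gene carries imino acids cannot be read from these data. Slc6a20b had 1610.0, 1169, 1902 and 518 in Sav1-null libraries, against 6473, 6387, 6874 and 6419 in wild-type libraries. The groups were far apart, and Slc6a20b fell by 2.48 ± 0.34 on the log2 scale (limma adjusted p = 0.000157). Slc6a20a ranged from 180.1 to 377 in Sav1-null libraries and from 221 to 289 in wild-type libraries and was not called (0.12 ± 0.21, adjusted p = 0.623), although it was without Sav1-null replicate 4 (0.33, adjusted p = 0.0393) and with equal library totals (0.50, adjusted p = 0.0397). RSEM divides reads that fit both copies by estimate. All 8 Slc6a20a values were whole numbers of estimated reads to within 0.02 read, while the Slc6a20b values lay above the range checked. Whether reads were divided between this pair was not tested.

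Among the carriers of taurine, creatine and betaine, the creatine carrier fell and the others were not called as deposited. Slc6a6, the taurine carrier, had 8121, 6517, 9053 and 5308 in Sav1-null libraries, against 6638, 7099, 7777 and 6714 in wild-type libraries. The wild-type values lay within the Sav1-null range and the gene was not called (0.012 ± 0.16, 95% interval from -0.34 to 0.37, limma adjusted p = 0.950). It was called higher after quantile normalization (0.58, adjusted p = 0.00868) and with equal library totals (0.40, adjusted p = 0.0314). Slc6a8, the creatine carrier, had 4586, 4178, 4194 and 3714 in Sav1-null libraries, against 5937, 5799, 5389 and 5602 in wild-type libraries. The groups did not overlap. It fell by 0.45 ± 0.08 (limma adjusted p = 0.000923), a call lost after quantile normalization (-0.034, adjusted p = 0.720) and with equal library totals (-0.066, adjusted p = 0.448). Slc6a13, a carrier of GABA, betaine and taurine, had 1991, 1369, 2150.5 and 992 in Sav1-null libraries, against 1949, 2731, 2492 and 1800.0 in wild-type libraries. Its groups overlapped and it was not called (-0.51 ± 0.24, limma adjusted p = 0.0894), but was called lower without Sav1-null replicate 3 (-0.67, adjusted p = 0.0347) and after median-of-ratios rescaling (-0.73, adjusted p = 0.0198).

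Slc6a9, the glycine carrier GlyT1, had 489, 510.4, 505 and 642 in Sav1-null libraries, against 1254, 1061, 1139.8 and 876 in wild-type libraries. All Sav1-null libraries were lower (-1.01 ± 0.13, limma adjusted p = 0.000105). Slc6a15, a carrier of branched-chain amino acids and proline best known from brain, ranged from 222 to 692 in Sav1-null libraries and from 626 to 1125 in wild-type libraries. It fell by 0.87 ± 0.35 (limma adjusted p = 0.0477), and the call was lost without Sav1-null replicate 2 (adjusted p = 0.0786), wild-type replicate 1 (0.0856), wild-type replicate 2 (0.116) or wild-type replicate 4 (0.102), and with equal library totals (-0.49, adjusted p = 0.200).

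The Slc6 members that rose are carriers known from nerve cells. Slc6a17, a synaptic vesicle carrier, had 291, 268, 302 and 240.2 in Sav1-null libraries, against 116, 131, 103 and 109 in wild-type libraries. All Sav1-null libraries were higher (1.25 ± 0.12, limma adjusted p = 2.24e-05). Slc6a4, the serotonin carrier, ranged from 81.7 to 223 in Sav1-null libraries and from 26.0 to 60.3 in wild-type libraries (1.86 ± 0.35, adjusted p = 0.00120). The 8 neuron and glia markers summed to 65.0 to 84.5 in Sav1-null libraries and to 38.1 to 44.4 in wild-type libraries, with Snap25 at 0 in all libraries and Th and Dbh at 0 in all Sav1-null libraries. Their part in these differences was not tested. Slc6a2 and Slc6a11 were at 0 in all 8 libraries, Slc6a3, Slc6a5 and Slc6a12 averaged below 2 in both groups, and Slc6a14 ranged from 4.92 to 17.6 in Sav1-null and from 5.15 to 6.70 in wild-type libraries. Slc6a7, the proline carrier of brain, had about 21 reads in Sav1-null libraries and 46 in wild-type libraries.

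In the Slc1 family, carriers of acidic and of small neutral amino acids, 2 of 5 tested members rose and 2 fell. Slc1a1 encodes EAAT3, the brush-border carrier of glutamate and aspartate. It had 3786, 2514, 3495 and 1724 in Sav1-null libraries, against 9146, 9085, 8421 and 8596 in wild-type libraries, with no overlap (-1.68 ± 0.22, limma adjusted p = 0.000112). Slc1a5 encodes ASCT2, the glutamine carrier of dividing cells. It had 1767, 2159, 2007 and 2698 in Sav1-null libraries, against 487, 517, 570.3 and 486 in wild-type libraries, with every Sav1-null library higher (2.05 ± 0.13, limma adjusted p = 1.91e-06). The ratio of Slc1a1 to Slc1a5 was 0.639 to 2.14 in Sav1-null libraries and 14.8 to 18.8 in wild-type libraries.

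Slc1a4, the relative of Slc1a5 that carries serine, alanine and cysteine, had 1016, 701, 706 and 804 in Sav1-null libraries, against 1246, 1378, 1289 and 1465 in wild-type libraries, without overlap. It fell by 0.75 ± 0.12 (limma adjusted p = 0.000490), opposite to Slc1a5. Slc1a3, the glutamate carrier of astrocytes, had 137, 139.8, 121 and 131 in Sav1-null libraries, against 32.6, 28.5, 44.0 and 33.0 in wild-type libraries. Its Sav1-null values were close together and all above wild-type (1.92 ± 0.17, limma adjusted p = 1.14e-05). Slc1a2, another glutamate carrier, averaged 148 ± 53.8 in Sav1-null and 96.9 ± 16.7 in wild-type libraries and was not called (0.54 ± 0.29, adjusted p = 0.129), but was without Sav1-null replicate 4 (0.83, adjusted p = 0.00239) and with equal library totals (0.92, adjusted p = 0.0131). Slc1a6 was at 0 throughout, and Slc1a7 had no read in Sav1-null libraries and about 5 in wild-type libraries.

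The Slc38 family holds sodium-coupled carriers of glutamine and other neutral amino acids. Of 8 tested members 2 rose, 1 fell and 5 were not called. Slc38a2 encodes SNAT2, which cells raise when amino acids are scarce, and it had 3130.2, 2799.6, 3381 and 3406 in Sav1-null libraries, against 1013, 1509, 977 and 1076 in wild-type libraries. Slc38a1, its close relative, had 198, 210.2, 173 and 212 in Sav1-null libraries, against 31.7, 42.7, 46.9 and 39.2 in wild-type libraries. For both genes the groups were separate. Slc38a2 rose by 1.49 ± 0.14 on the log2 scale (limma adjusted p = 1.54e-05) and Slc38a1 by 2.28 ± 0.16 (limma adjusted p = 3.53e-06).

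Slc38a3 encodes SNAT3, the basolateral glutamine carrier that serves ammonia production in the tubule. It had 3972, 3072, 3489.6 and 2303 in Sav1-null libraries, against 2472, 4717, 4628 and 3309 in wild-type libraries, with broad overlap and no call (-0.22 ± 0.23, 95% interval from -0.74 to 0.31, limma adjusted p = 0.426). Slc38a10 had 3492, 3196, 3281 and 3577 in Sav1-null libraries, against 3284, 3043, 3597 and 3659.8 in wild-type libraries. The libraries of both groups were alike in range, and the 95% interval of its log2 fold change ran from -0.19 to 0.18 (adjusted p = 0.987). It was called higher after quantile normalization (0.29, adjusted p = 0.0175) and with equal library totals (0.38, adjusted p = 0.00281). Slc38a9, the lysosomal arginine sensor (325 ± 34.7 in Sav1-null, 300.1 ± 22.5 in wild-type libraries), and Slc38a7 (411 ± 39.0 in Sav1-null, 395 ± 18.9 in wild-type libraries) were not called either, except with equal library totals, where both were higher (0.49, adjusted p = 0.00185 for Slc38a9, and 0.44, adjusted p = 0.00395 for Slc38a7).

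Slc38a6 had 212, 188, 178 and 128 in Sav1-null libraries, against 326, 224, 226 and 226 in wild-type libraries, and wild-type replicate 1 stood apart at the top. The groups lay close together without overlap. Slc38a6 fell by 0.51 ± 0.19 (limma adjusted p = 0.0354). The call was lost without Sav1-null replicate 2 (adjusted p = 0.0524), replicate 3 (0.0589) or replicate 4 (0.0591), and without wild-type replicate 1 (0.0980). With equal library totals the value was -0.12 (adjusted p = 0.541). Slc38a4 averaged 13.6 ± 8.30 in Sav1-null and 7.86 ± 4.02 in wild-type libraries (0.60 ± 0.53, limma adjusted p = 0.335), and was called higher without Sav1-null replicate 4 (1.05, adjusted p = 0.0493). Below the filter, Slc38a11 had about 1 read in Sav1-null libraries and 16 in wild-type libraries, Slc38a8 had 1 read in each group and Slc38a5 none.

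The proton-coupled Slc36 carriers split. Slc36a1 encodes PAT1, the carrier of glycine, alanine and proline known from the lysosome and the intestinal brush border. It had 983, 859, 938 and 735 in Sav1-null libraries, against 2952, 3126, 2853 and 2777 in wild-type libraries, and fell by 1.74 ± 0.10 on the log2 scale (limma adjusted p = 1.29e-06). Slc36a4, a high affinity relative, had 89.0, 67.4, 104 and 57.1 in Sav1-null libraries, against 32.6, 36.02, 23.9 and 33.0 in wild-type libraries. It rose by 1.29 ± 0.23 (limma adjusted p = 0.000909), a call lost after quantile normalization (0.28, adjusted p = 0.327). Neither pair of groups overlapped. Slc36a2 and Slc36a3 averaged below 7 in both groups.

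The 3 members of Slc43 were all called, beside 69.1% of all tested genes. Slc43a2 encodes LAT4, the basolateral carrier through which branched-chain amino acids and phenylalanine leave the proximal tubule. It had 2175, 2367, 2129 and 1985 in Sav1-null libraries, against 5766, 4987, 5008 and 5129.9 in wild-type libraries, without overlap (-1.27 ± 0.08, limma adjusted p = 2.30e-06). Slc43a3, which carries purine nucleobases and not amino acids, had 378, 393, 492 and 246 in Sav1-null libraries, against 200.4, 229, 224 and 187 in wild-type libraries, without overlap. It rose by 0.81 ± 0.19 (limma adjusted p = 0.00461), a call lost after quantile normalization (0.42, adjusted p = 0.103). Slc43a1, the related LAT3, was low, with 10.9, 22.5, 19.0 and 7.87 in Sav1-null libraries, against 3.63, 5.03, 10.5 and 1.03 in wild-type libraries, and the groups overlapped. It was called higher (1.56 ± 0.56, limma adjusted p = 0.0320), but not without wild-type replicate 1 (1.52, adjusted p = 0.0652), without wild-type replicate 4 (1.12, adjusted p = 0.0713) or after quantile normalization (0.084, adjusted p = 0.882).

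The partners of the brush-border carriers and the peptidases that release amino acids beside them mostly fell. Of 12 such genes, all tested, 9 were lower, none was higher and 3 were not called, with a median log2 fold change of -1.93. Of all tested genes 25.2% were lower and 43.9% higher, with a median of 0.23. Tmem27, or collectrin, the partner of the Slc6a19 and Slc6a18 products in kidney, had 12345, 7139.8, 10432 and 3245 in Sav1-null libraries, against 31558, 25562, 26532 and 27656 in wild-type libraries. It fell by 1.91 ± 0.36 (limma adjusted p = 0.00109), whereas Slc6a18 was not called lower. Acy3, an aminoacylase, fell by 4.14 ± 0.40 on the log2 scale (limma adjusted p = 1.80e-05). The dipeptidase Dpep1 fell by 3.54 ± 0.39 (limma adjusted p = 3.92e-05), the glutathione-cleaving Ggt1 fell by 2.25 ± 0.17 (limma adjusted p = 4.65e-06) and the aminopeptidase Anpep fell by 1.72 ± 0.19 (limma adjusted p = 4.15e-05).

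Carriers of amino acids and peptides from other families were listed for comparison. Of 21 such genes 14 were tested, of which 9 fell, 1 rose and 4 were not called, with a median of -0.54. That is 71.4% called, beside 69.1% of all tested genes, of which 25.2% were lower. The mitochondrial carriers Slc25a15 (ornithine; -1.59 ± 0.23, limma adjusted p = 0.000200), Slc25a38 (glycine; -0.68 ± 0.08, adjusted p = 8.04e-05) and Slc25a44 (branched-chain amino acids; -0.64 ± 0.08, adjusted p = 6.37e-05) were lower. Pqlc2, the lysosomal exporter of cationic amino acids, was lower as well (-0.94 ± 0.11, limma adjusted p = 6.65e-05). Slc16a10, the basolateral carrier of aromatic amino acids, fell by 0.46 ± 0.12 (limma adjusted p = 0.00830), a call lost with equal library totals (-0.076, adjusted p = 0.572) and without wild-type replicates 2 and 3 (-0.47, adjusted p = 0.0538). Slc15a3, a lysosomal carrier of peptides and histidine known from immune cells, averaged 102 ± 14.6 in Sav1-null and 21.4 ± 8.71 in wild-type libraries and rose by 2.29 ± 0.32 (limma adjusted p = 0.000188). The macrophage markers summed to 4225 to 5539 in Sav1-null libraries and to 924 to 1388 in wild-type libraries, and their part in that rise was not tested.

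Genes of the ATF4 and amino acid deprivation response, which include enzymes of serine, proline and asparagine synthesis, changed in both directions. Of 20 listed and tested genes 9 rose, 6 fell and 5 were not called, with a median of 0.37. That is 15 of 20 called, beside 69.1% of all tested genes, of which 43.9% were higher. Nupr1, a nuclear protein induced by stress, rose by 2.74 ± 0.20 (limma adjusted p = 4.66e-06), Phgdh, the first enzyme of serine synthesis, by 2.75 ± 0.31 (limma adjusted p = 4.40e-05), and Aldh18a1, of proline synthesis, by 2.55 ± 0.21 (limma adjusted p = 8.70e-06). Asns, asparagine synthetase, averaged 460.2 ± 141 in Sav1-null and 151 ± 25.8 in wild-type libraries (1.57 ± 0.21, limma adjusted p = 0.000139). Shmt2, a mitochondrial enzyme that converts serine to glycine, fell by 2.34 ± 0.16 (limma adjusted p = 2.94e-06) and Stbd1 by 1.85 ± 0.17 (limma adjusted p = 1.40e-05). Atf4 itself averaged 2541 ± 538 in Sav1-null and 2343 ± 135 in wild-type libraries and was not called (0.10 ± 0.13, adjusted p = 0.546).

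Libraries within the Sav1-null group were not alike. Of the 42 tested members, 26 had their lowest Sav1-null value in replicate 4, and 11 had their highest there. This count was not taken over all tested genes, so it cannot be read as particular to the members. Replicate 4 had the lowest total of the Sav1-null libraries (1.55e+07) and the most genes at 0 (5963). The brush-border genes Slc3a1, Slc7a9, Slc6a19, Slc6a20b and Slc1a1 were lowest in that library, while Slc1a5, Slc7a1 and Slc7a6 were highest in it. It was also the library with the lowest proximal tubule sum and the highest injured tubule sum. Havcr1 and Vcam1, however, were lowest in it among the Sav1-null libraries. The part of these markers in its values was not tested. Without Sav1-null replicate 4, 18 members were called higher and 12 lower. Without that library and wild-type replicates 2 and 3, the wild-type libraries with more Havcr1, the counts were 16 higher and 14 lower.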

How the data were processed

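RNA of kidney cortex from 4 Sav1-null and 4 wild-type libraries had been isolated with Qiagen RNeasy kits and made into TruSeq stranded mRNA libraries, per the labels' protocols. Picard 1.64, SAMtools and RSEM were used with build mm9, per the submitters' processing notes, while the sources used here name no aligner, annotation or use of strand in counting. The deposited values are a normalized signal, not counts. Of the values below 400 in a library, 92.7% to 93.3% were whole multiples of a common step to within 0.02 read, too few for a count model. Totals divided by that step gave about 15700000 to 20900000 reads per Sav1-null library and 20500000 to 25000000 per wild-type library, and read numbers in the text come from these steps. Such numbers carry counting error only.

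Groups of 4 libraries were set against each other by limma 3.58.1 under R 4.3.3 (log2 of value + 1, intensity trend, 6 residual degrees of freedom, genes with a mean of at least 10), with Benjamini-Hochberg adjustment over 13677 genes and a call at adjusted p under 0.05. Fold changes understate the change of low genes. Lengths are those of the longest GENCODE M21 transcript (GRCm38, another build than the authors'). Replicate numbers did not pair the samples.

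The 7 families and the lists were chosen with earlier results of these data known, and the symbol pattern alone then fixed the members. Full values are given, within each family, for the 4 called members with the smallest p and others with a mean of at least 1000, and for lists the 4 smallest p in the leading direction and 2 in the other. Slc7a12, Slc7a3, Slc7a11, Slc38a11, Tmem27, Slc16a10, Atf4, Kap and the motif genes were named after their values were seen. Some members of the families and lists are not reported here. Alternatives were other pseudocounts (0.5, 10), filters (none, 50), 3 scalings, a replicate block and leaving out each library; 2 further exclusions of libraries were chosen after seeing the data.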

Additional observations from a re-analysis of the deposited data

Results flagged for a closer look

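In 84 groups of 4 libraries (42 tested members in each of the Sav1-null and wild-type groups), 3 held a library whose gap to the nearest other exceeded Dixon's 95% critical value for 4 samples, where chance flags about 1 group in 20. Slc7a1 had 1114 in Sav1-null replicate 4, beside 665 to 707 in the other Sav1-null libraries. Slc6a9 had 642 in Sav1-null replicate 4, beside 489 to 510.4 in the other Sav1-null libraries, and was lower than in wild-type all the same. Slc38a6 had 326 in wild-type replicate 1, beside 224 to 226 in the other wild-type libraries, and its call was lost without that library (log2 fold change -0.37, limma adjusted p = 0.0980).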

How the results depend on the processing

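Over 18 alternatives, 19 of the 28 called members kept their call and direction in each alternative that gave a value. Leaving out 1 library gave 12 to 18 members called higher and 11 to 14 lower, against 14 and 14 with all libraries. Equal library totals gave 23 higher and 10 lower, median-of-ratios rescaling 12 and 15, quantile normalization 14 and 12, and no filter 16 and 17, with Slc7a3, Slc7a11 and Slc7a14 added as higher and Slc1a7, Slc6a7 and Slc38a11 as lower. These scalings moved the median log2 fold change of all genes by 0.382, -0.225 and -0.257, and the share of all calls that were higher was 63.5% as deposited, 81.8%, 49.7% and 48.3%. With the replicate block 13 members were called higher and 14 lower. Correlations of same-numbered libraries (0.144, 0.0762, -0.169 and 0.135) did not show pairing.

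Signs turned, for a cause not tested, in Slc7a2 (-0.22 by quantile normalization), which was called as deposited, and in members that were not called. Median-of-ratios rescaling gave -0.10 for Slc6a20a, -0.11 for Slc38a9, -0.14 for Slc7a6os, -0.16 for Slc3a2, -0.17 for Slc7a8 and Slc38a7 and -0.21 for Slc6a6. Quantile normalization gave -0.18 for Slc1a2, -0.21 for Slc7a6os, -0.22 for Slc38a7, -0.24 for Slc38a9, -0.28 for Slc6a20a, -0.69 for Slc38a4, 0.063 for Slc38a3 and 0.29 for Slc38a10. Equal totals gave 0.17 for Slc38a3, 0.34 for Slc7a4 and 0.38 for Slc38a10. Leaving out 1 library gave ranges from -0.10 to 0.15 for Slc6a6, -0.077 to 0.25 for Slc7a8, -0.053 to 0.036 for Slc38a10, -0.021 to 0.33 for Slc6a20a, -0.19 to 0.083 for Slc7a4, -0.0030 to 0.10 for Slc38a7 and -0.011 to 0.15 for Slc3a2. Without wild-type replicates 2 and 3 Slc3a2 was at -0.051, Slc7a8 at -0.31 and Slc38a3 at 0.14, and without Sav1-null replicate 4 as well at -0.12, -0.29 and 0.29. Depth limits members below the filter, where a value of 3 reads is 2.34 to 3.09.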
